A study of Mus musculus with 4 samples.

Results

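Long intergenic noncoding RNAs (lincRNAs) were taken as all genes of the deposited expression table that the mouse GENCODE M21 annotation types as lincRNA. Host genes of small nucleolar RNAs (symbols starting with Snhg, and Gas5, Zfas1 and Epb41l4aos) were left out by this rule. It kept 175 genes of the 12390 in the table and excluded 6 of 181 lincRNA-type genes. No expression value entered the choice. The annotation holds 5854 lincRNA-type genes in all, so the 175 are those whose level reached the table, where the lowest maximum over the 4 libraries was 1.0063 RPKM (read counts per transcript length and per library total).

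RNA came from hematopoietic stem cells sorted out of mouse bone marrow (Lin-Sca-1+c-Kit+CD48-CD150+, about 5000 cells per library) and was copied with a kit for very small inputs that does not mark the strand. The 2 control libraries are from mice with floxed Ddx21 alleles (labelled Ddx211fl/fl, genotype WT), and the 2 knockout libraries are from mice that carry these alleles and CAG-CreERT2 (genotype KO). CAG is a broadly active promoter and CreERT2 a recombinase switched on by tamoxifen, so deletion need not be limited to blood cells. Age, sex, tamoxifen dosing and the floxed exons were not given in the sources used here, and nothing says that the libraries of a group came from separate animals. All p-values below therefore refer to the spread among these 4 libraries, and that spread may be technical.

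A lincRNA gene is transcribed apart from protein-coding genes, and its RNA is usually capped, spliced and polyadenylated like a messenger RNA but holds no long conserved reading frame. Some work in the nucleus, such as Xist, which coats and silences one X chromosome in female cells. Others act on genes beside them or only carry a microRNA in their transcript, and most have no known role. They are commonly expressed at lower levels and in fewer cell types than messenger RNAs.

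The table held 43218009 to 62871440 reads per library, recovered from the RPKM values. Ddx21 had 11 and 12.1 RPKM in control against 6.20 and 6.60 RPKM in knockout (log2 fold change -0.76, SE 0.30, limma with Benjamini-Hochberg adjustment, adjusted p = 0.158). It was lower in both knockout libraries, short of the threshold in this test of the deposited values. The values cover the whole gene rather than the floxed part. All 9 markers of the stem cell gate were listed, and they held 0.0541% and 0.0568% of reads in control and 0.0751% and 0.0950% in knockout. The 12 neutrophil and monocyte markers, which the gate should exclude, held 7.65% and 8.0% of reads in control and 5.57% and 3.68% in knockout. The 9 listed markers of osteoblasts and stroma held 0.0716% and 0.0584% in control and 1.11% and 0.314% in knockout. Against the control mean, the median gene was 0.12 higher in knockout replicate 1 and 0.50 higher in knockout replicate 2 on the log2(RPKM + 1) scale. The scale of each library therefore enters every comparison below, and values after rescaling the libraries to each other (trimmed mean of M-values) stand beside the deposited ones. For Ddx21 the log2 fold change was -1.09 after rescaling (limma adjusted p = 0.102). By voom on the rescaled recovered reads it was -1.23 (adjusted p = 0.0383), which passed the threshold of 0.05. In bulk RNA, a change in the number of cells of a type and a change in RNA per cell cannot be told apart.

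Most of the 175 genes carry placeholder names. There are 86 with a Gm number, 54 with a Rik name, 15 named after a sequenced clone and 20 with another symbol, Malat1 and Xist among them. Only 27 have a single exon in their longest transcript. Chromosome 5 holds 19 of them, and chromosomes 6 and 17 hold 17 each. The median longest transcript is 1242 bases, against 3222 bases for the protein-coding genes listed, and its median GC content is 47.9% against 49.6%. Because strand was not marked, reads of 40 lincRNAs whose exons overlap those of another annotated gene cannot be assigned with certainty, and for 14 of them the other gene is itself in the table. A further source of uncertainty is sequence copies. For 27 members, another gene's transcript matches at 97% identity or more over at least 100 bases, and for 8 of them such matches cover at least 50% of the transcript. One or both of these apply to 59 members.

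Poly(A) tails bear on these values because the kit primes on them. The signals AATAAA or ATTAAA, searched on the transcript strand in the last 50 bases of the longest transcript, were found in 95 of 175 lincRNAs (54.3%), in 73.1% of 10175 protein-coding genes and in 50.5% of 214 antisense and bidirectional-promoter RNAs. Among the 11 lincRNAs that were called higher in knockout (below), 6 (54.5%) hold a signal in that window. The last 60 bases of those 11 transcripts, from the GENCODE M21 transcripts and in transcript direction, are shown to let a reader see which annotated ends carry a signal; capitals mark AATAAA and ATTAAA and overlapping runs of both.
Gm47697: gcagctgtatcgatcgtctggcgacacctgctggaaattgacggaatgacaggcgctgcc
CT030636.1: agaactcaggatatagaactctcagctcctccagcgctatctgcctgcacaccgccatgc
Pvt1: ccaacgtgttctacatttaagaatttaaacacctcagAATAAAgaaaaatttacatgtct
Gm19590: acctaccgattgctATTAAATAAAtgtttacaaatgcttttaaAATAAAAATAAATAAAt
AC091309.7: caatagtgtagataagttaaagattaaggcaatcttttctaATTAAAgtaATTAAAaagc
AC091309.4: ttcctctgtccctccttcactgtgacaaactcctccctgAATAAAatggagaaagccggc
Gm35189: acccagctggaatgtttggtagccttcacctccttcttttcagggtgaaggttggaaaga
Gm43904: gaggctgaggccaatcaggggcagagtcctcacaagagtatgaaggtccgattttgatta
5033406O09Rik: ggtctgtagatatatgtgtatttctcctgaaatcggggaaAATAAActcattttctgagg
Gm14317: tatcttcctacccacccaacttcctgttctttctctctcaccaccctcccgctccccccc
AW112010: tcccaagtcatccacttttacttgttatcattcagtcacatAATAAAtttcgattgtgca
An end without a signal shows only that these letters are not in this window of the annotated transcript.

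The lincRNAs were low in these cells. Their median level over the 4 libraries was 1.76 RPKM (quartiles 1.23 and 4.18), against 7.11 RPKM for protein-coding genes and 1.43 RPKM for antisense and bidirectional-promoter RNAs. Together they held 0.215% and 0.183% of control reads and 0.221% and 0.292% of knockout reads. A typical member rests on few reads: the median per member was between 106 and 143 reads, depending on the library. The 10 most abundant lincRNAs carried 61.8% and 63.5% of the summed RPKM of all members in control and 56.4% and 50.6% in knockout.

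The most abundant entry was Gm10076 (ENSMUSG00000060143, chr14:105681828-105682211, plus strand, mm10, a single exon). It stood at 243, 222, 225 and 163 RPKM in control replicates 1 and 2 and knockout replicates 1 and 2. Its transcript matches that of the ribosomal protein gene Rpl41 over 99.7% of its length, so its reads cannot be separated from those of Rpl41, which stood between 2201 and 2723 RPKM. This entry alone made up 25.1% and 25.7% of the summed lincRNA RPKM in control and 22.2% and 12.6% in knockout. Without it, the summed RPKM of the members was 726 and 641 in control and 787 and 1132 in knockout, and 807, 748, 806 and 851 after rescaling. The knockout libraries are both above the control libraries in the deposited sums, whereas after rescaling knockout replicate 1 lies between them.

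Malat1, a nuclear RNA of the splicing speckles, was the most abundant lincRNA without such a copy. It stood at 81.0 and 64.2 RPKM in control and at 64.6 and 80.5 RPKM in knockout. The groups overlapped, and its log2 fold change was 0.00 (SE 0.18), or -0.37 after rescaling. AW112010, an RNA known in mouse immune cells to increase on inflammatory stimulation, stood at 44.9 and 40.2 RPKM in control and at 59.0 and 85.1 RPKM in knockout. It was the only one of the 10 most abundant that was called, and it is described with the others that rose. Tmem250-ps stood at 47.7 and 47.2 against 42.6 and 63.2 RPKM, and Gm28875 at 37.4 and 37.9 against 37.2 and 74.0 RPKM. In both of these the excess in knockout lay in replicate 2 alone. The unnamed 4930519L02Rik was steady in control, at 37.7 RPKM in each library, and stood at 46.2 and 64.5 RPKM in knockout (log2 fold change 0.52, SE 0.20, adjusted p = 0.134). The single-exon 2900097C17Rik, of which 51.6% is matched by another transcript, stood at 20.5 and 23.0 against 17.9 and 27.5 RPKM, with overlapping groups (0.03, adjusted p = 0.932). Mir142hg, Xist and AC102496.1, which complete the 10, are described below with the genes they resemble in role or direction.

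**Figure D1:**
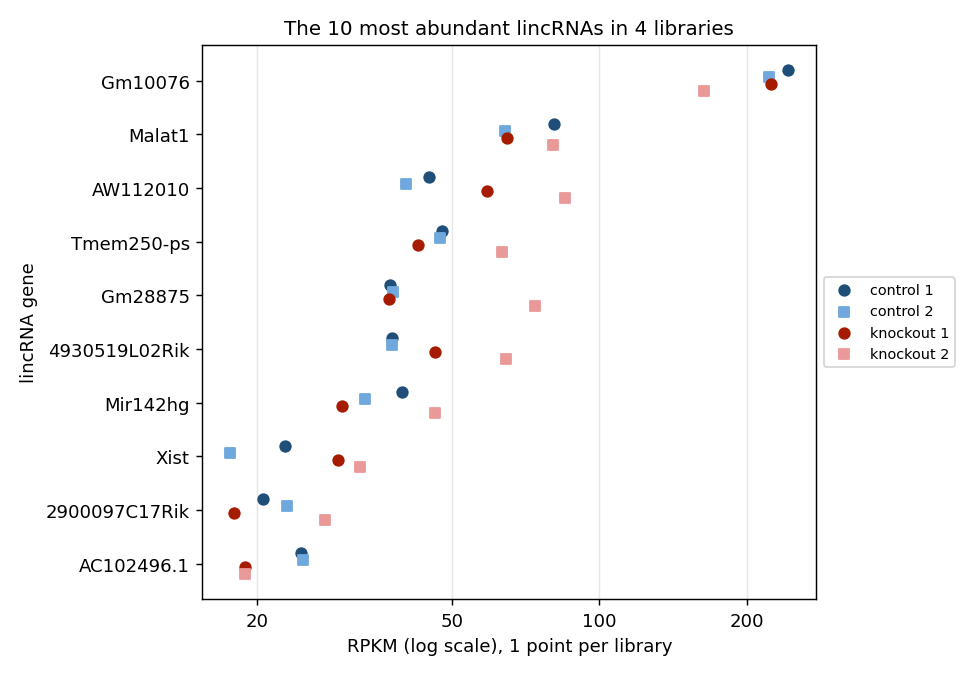
RPKM (log axis) of the 10 most abundant lincRNAs, 1 point per library, ordered by mean level. Knockout replicate 2 is the highest library for AW112010 (85.1 RPKM) and Gm28875 (74.0 RPKM) and the lowest for Gm10076 (163 RPKM).

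Xist (chrX:103460366-103483254, minus strand) stood at 22.8 and 17.6 RPKM in control and at 29.3 and 32.4 RPKM in knockout. The log2 fold change was 0.60 (SE 0.22, limma adjusted p = 0.129), or 0.24 after rescaling, where the groups overlapped. Its read counts, 19981 to 25389 per library, rest on a transcript of 17946 bases. The Y chromosome genes Ddx3y, Kdm5d, Uty and Eif2s3y were not listed. Jpx and Ftx lie beside Xist in the X-inactivation center, and both are known in mouse to promote Xist expression. Jpx stood at 1.30 and 1.15 against 2.01 and 3.38 RPKM (log2 fold change 0.71, adjusted p = 0.218), and Ftx at 2.0 and 1.67 against 2.37 and 3.23 RPKM (0.42, adjusted p = 0.444). None of the 3 passed the test. Exons of other annotated genes, none of them listed, overlap those of Xist (5 genes), Jpx (3) and Ftx (5). Without strand, reads in those stretches cannot be assigned with certainty. The nuclear and chromatin list, which also holds Malat1 and the paraspeckle scaffold Neat1, had 5 members with a median log2 fold change of 0.42, and 0 were called.

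Of the 175 members, 144 (82.3%) had a mean of at least 1 RPKM and were tested. The test was limma on log2(RPKM + 1), its variances taken from a trend on the mean, with Benjamini-Hochberg adjustment over 11742 genes and a threshold of 0.05. In knockout 11 of the 144 (7.64%) rose and 0 fell, beside 3.33% of all genes tested that rose and 0.86% that fell (4.19% either way). For the fall, the count at an unadjusted p under 0.05 was also 0, against 43 in the other direction (29.9%, beside 13.8% of all genes higher and 2.45% lower). The median log2 fold change over the tested members was 0.42, against 0.31 over all genes, 0.33 over protein-coding genes and 0.42 over antisense and bidirectional-promoter RNAs. After rescaling the medians were 0.14 for lincRNAs, 0.16 for antisense and bidirectional-promoter RNAs and -0.00 for all genes. By voom on the rescaled recovered reads they were 0.20, 0.28 and 0.0044. The shift above all genes is therefore not particular to lincRNAs. Limma on the rescaled values called 0 members and 0 genes in all. At an unadjusted p under 0.05 in that fit there were 35 members above and 8 below control (beside 7.81% and 7.75% of all genes). Voom on the rescaled recovered reads called 2 members higher and 0 lower, beside 0.307% and 0.102% of all genes (0.409% either way). By fold, 90 of the 144 members (62.5%) lay above the median of all genes. Single libraries moved the count. Limma called 1 member, Gm47697, without control replicate 1 (beside 0.315% of all genes higher), without control replicate 2 (0.23%) and without knockout replicate 2 (0.818%). When knockout replicate 1 was left out it called 95 members, 91 higher and 4 lower (beside 54.3% higher and 4.48% lower).

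These counts and medians carry a selection. A gene entered the table through its highest library, and 44 of the 175 members (25.1%) reached the table's lowest maximum in knockout libraries only, against 8.08% of all genes. For 23 members (13.1%, against 3.94%) it was knockout replicate 2 alone, and 2 members reached it in control libraries only. For the 44, the highest library is a knockout library by construction, and for 36 of them the groups did not overlap. Among the 11 called members, 3 came in this way (Gm47697, CT030636.1 and Gm14317). The counts and medians above describe the listed genes and not lincRNAs at large.

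Overlap between groups was close to that of all genes in the deposited values. The groups did not overlap and knockout was higher for 85 of the 144 tested members (59.0%, beside 55.5% of all genes), and knockout was lower for 5 (3.47%, beside 7.38%). After rescaling, the counts over the same listed members, with the selection just described, were 64 higher (44.4%, beside 26.7%) and 28 lower (19.4%, beside 27.8%). Knockout replicate 2 was the highest of the 4 libraries for 120 members (83.3%, beside 78.6%). The median member lay 0.21 above the control mean in knockout replicate 1 and 0.66 above it in knockout replicate 2 (log2 scale), and 0.12 and 0.23 after rescaling.

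**Figure D2:**
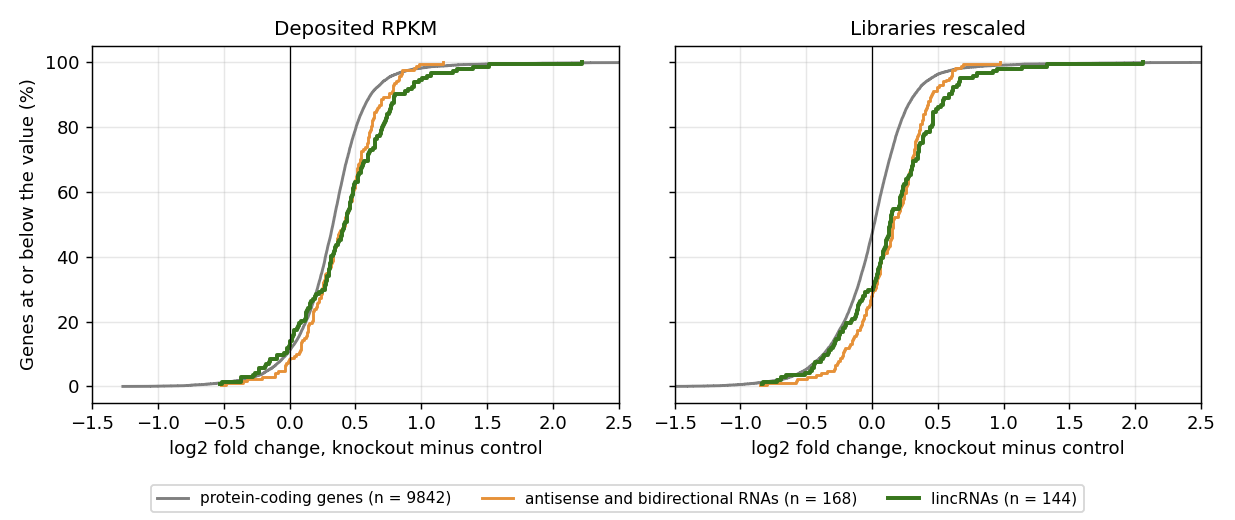
Cumulative share of genes (%) against log2 fold change (knockout minus control, axis limited to -1.5 to 2.5) for 144 lincRNAs, 168 antisense and bidirectional-promoter RNAs and 9842 protein-coding genes, in deposited (left) and rescaled (right) values. The lincRNA curve lies to the right of the coding curve through the upper part of both panels, with medians of 0.42 against 0.33 and 0.14 against 0.02. The antisense and bidirectional-promoter RNAs had medians of 0.42 and 0.16.

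The largest rise among the members was that of Gm47697 (ENSMUSG00000112350, chr10:81525411-81526988, plus strand). It stood at 0.001 RPKM, the table's value for no reads, and 0.0423 RPKM in control and at 2.46 and 5.58 RPKM in knockout (means 0.0216 ± 0.0292 and 4.02 ± 2.21, SD, n = 2). The groups are far apart, and nearly all reads are in knockout: 1 read in control against 40 and 91 in knockout. Scaled to the reads of each group, the ratio was 179, with a 95% exact binomial (Clopper-Pearson) interval of 31.6 to 7129 that covers counting error only. This gene entered the table and passed the filter through its knockout libraries alone, so its ratio describes a gene that could be listed only if high there. The log2 fold change was 2.22 (SE 0.27, adjusted p = 2.89e-13). It was also the only member called in each of the 4 fits that left out 1 library. Those fits kept the filter over all 4 libraries, so they could not test its listing through knockout libraries. CT030636.1 (chr17:12784882-12791660, minus strand) was the second, at 0.422 and 0.125 RPKM in control and at 1.63 and 3.97 RPKM in knockout, on 8 reads in control and 62 in knockout. Its log2 fold change was 1.52 (SE 0.27, adjusted p = 3.31e-06). Both knockout libraries are above both controls here too, in a gene that was likewise listed through its knockout libraries alone.

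Pvt1 (ENSMUSG00000097039, chr15:62037986-62378096, plus strand) is the one called lincRNA with a much studied role. It lies beside Myc, can raise MYC protein in human cancer cells, and in mouse is a target of the tumor suppressor p53. It stood at 1.37 and 0.835 RPKM in control and at 3.49 and 5.68 RPKM in knockout, so both knockout libraries were above both controls. Its mean rose from 1.1 ± 0.376 to 4.58 ± 1.55 RPKM (SD, n = 2). The log2 fold change was 1.39 (SE 0.32, adjusted p = 0.00102), and 1.14 after rescaling. With Gm47697 it was one of the 2 members that voom on rescaled reads called (adjusted p = 0.0468). Myc, 47612 bases away, stood at 153, 186, 175 and 183 RPKM, with groups that overlapped and a log2 fold change of 0.09 (adjusted p = 0.729), which was -0.29 after rescaling. Pvt1 is also the only called member whose exons overlap other annotated genes, 4 in all, and no called member has a near-identical copy.

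Gm19590 (chr5:75833035-75835645, minus strand) was the most abundant among the larger rises. It stood at 12.2 and 8.13 RPKM in control and at 22.8 and 28.6 RPKM in knockout, on 614 to 1489 reads per library. The log2 fold change was 1.27 (SE 0.25, adjusted p = 4.48e-05), and 0.92 after rescaling. Its nearest listed coding gene is Kit, the stem cell factor receptor used in the sort, 176313 bases away. Kit stood at 50.8, 44.0, 59.2 and 64.5 RPKM (log2 fold change 0.38, adjusted p = 0.305), or 0.01 after rescaling.

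Gm35189 on chromosome 12 stood at 1.22 and 0.903 RPKM in control and at 2.91 and 3.57 RPKM in knockout (log2 fold change 1.04, SE 0.31, adjusted p = 0.0243). Gm43904, 592 bases from the platelet glycoprotein gene Gp9 on chromosome 6, stood at 5.27 and 6.22 against 9.76 and 15.9 RPKM (1.0, SE 0.30, adjusted p = 0.0262). Both keep their knockout libraries above their controls. The rise of 5033406O09Rik on chromosome 12 was carried by replicate 2, with 8.61 and 7.12 RPKM in control against 11.3 and 22.0 RPKM (0.93, SE 0.28, adjusted p = 0.0256). Gm14317 on chromosome 2 stood at 0.439 and 0.454 against 1.05 and 2.10 RPKM (0.80, SE 0.26, limma adjusted p = 0.0438). It too was listed through its knockout libraries alone, which favoured a rise. The most abundant called member, AW112010, rose from 42.6 ± 3.33 to 72.0 ± 18.5 RPKM (0.72, SE 0.19, adjusted p = 0.00747), and its fold was 0.35 after rescaling. In all 11 called members knockout replicate 2 was above knockout replicate 1, and in 7 of 11 after rescaling. Only Gm47697, listed through its knockout libraries alone, stayed called when either control or knockout replicate 2 was left out.

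**Figure D3:**
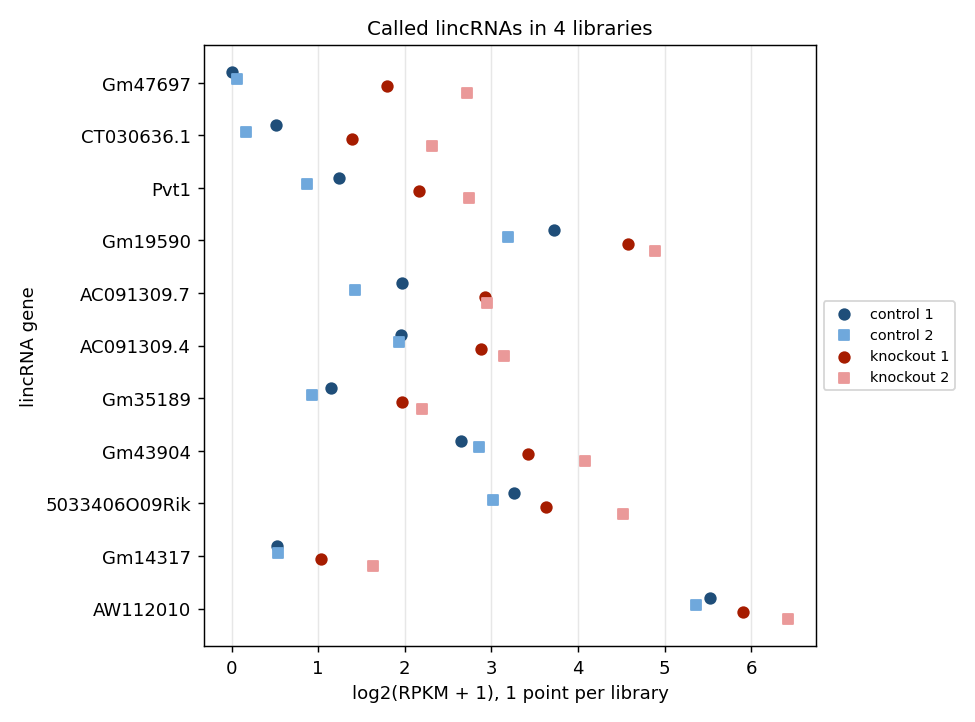
log2(RPKM + 1) of the 11 called lincRNAs, 1 point per library, ordered by log2 fold change from Gm47697 (2.22) to AW112010 (0.72). Both knockout libraries lie to the right of both control libraries for each gene. Among them, 3 (Gm47697, CT030636.1 and Gm14317) were listed through knockout libraries only.

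A pair of the called lincRNAs are neighbours. AC091309.4 and AC091309.7 belong to a run of 5 listed lincRNAs that share the clone name AC091309, on chr17:83917937-84026019, a stretch of 108.1 kb. Haao lies on one side and Zfp36l2 on the other, and further listed lincRNAs lie between the run and these genes. On the Zfp36l2 side, AC132455.2 was not called (log2 fold change 0.27, limma adjusted p = 0.548). Beside Haao, C430042M11Rik was below the filter, at 0.596 and 0.431 RPKM in control against 1.19 and 1.43 RPKM in knockout. In genomic order, AC091309.4 stood at 2.89 and 2.81 RPKM in control and 6.38 and 7.87 RPKM in knockout (log2 fold change 1.07, SE 0.34, adjusted p = 0.0374). Next to it, AC091309.1 was too low to be tested, at 0.488 and 0.165 against 0.807 and 1.25 RPKM. AC091309.7 stood at 2.91 and 1.69 against 6.60 and 6.72 RPKM (1.24, SE 0.34, adjusted p = 0.0104). The 2 called genes are both on the plus strand. The remaining members of the run were not called: AC091309.2 stood at 3.65 and 3.17 against 5.17 and 4.64 RPKM (0.42, adjusted p = 0.457), and AC091309.5 stood at 2.96 and 3.09 against 5.75 and 5.71 RPKM (0.74, adjusted p = 0.25). In the deposited values the groups did not overlap for any of the 5, and after rescaling they overlapped for AC091309.2. Knockout was also higher without overlap for 55.5% of all genes tested and for 64.0% of all genes below the filter. AC091309.1 and C430042M11Rik reached the table's lowest maximum in knockout libraries only, so the listing favoured their direction. Haao, an enzyme of tryptophan breakdown, stood at 3.27, 2.29, 4.02 and 4.88 RPKM (0.53, adjusted p = 0.389).

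**Figure D4:**
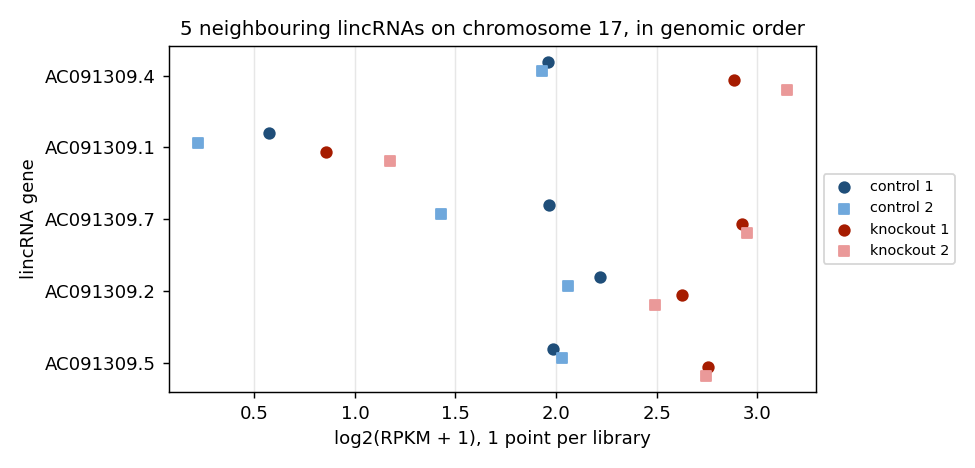
log2(RPKM + 1) of 5 neighbouring lincRNAs of chromosome 17 in genomic order, 1 point per library. Knockout libraries lie to the right of control libraries for each of them, as for 55.5% of all genes tested. AC091309.1 was listed through knockout replicate 2 alone. AC091309.4 (1.07) and AC091309.7 (1.24) were called.

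The largest uncalled difference without overlap was that of Gm20467 on chromosome 19, at 4.11 and 2.77 RPKM in control and 6.08 and 9.59 RPKM in knockout (log2 fold change 0.98, SE 0.33, adjusted p = 0.0683). It lies 1700 bases from Nkx2-3, a homeobox gene. The next largest uncalled differences were Gm43568 (0.95), Gm45353 (0.95), C030034L19Rik (0.90), Gm36738 (0.88), C920006O11Rik (0.80), Gm10384 (0.79) and AC102342.2 (0.79), with adjusted p from 0.0877 to 0.206. Gm32051 had a smaller fold (0.77) but came closer to the threshold than these (adjusted p = 0.0734). C030034L19Rik overlaps exons of Zfp704 on the other strand, so its reads may belong to either gene.

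In the other direction, 5 tested members were lower in both knockout libraries than in both controls, and limma called 0 of them. AC158975.2 stood at 6.59 and 5.25 RPKM in control and at 3.61 and 3.95 RPKM in knockout (log2 fold change -0.53, SE 0.34, adjusted p = 0.391). Gm28901 stood at 7.49 and 7.15 against 5.09 and 4.59 RPKM (-0.51, SE 0.32, adjusted p = 0.391), but 86.5% of its transcript matches the messenger RNA of the splicing factor gene Hnrnpf, which stood at 325 and 349 against 317 and 269 RPKM. AC158975.2 is likewise matched over its whole length by other transcripts. Gm34680, 55212 bases from the transferrin receptor gene Tfrc, stood at 6.33 and 6.58 against 4.19 and 5.43 RPKM (-0.37, adjusted p = 0.49). AC102496.1, 614 bases from the lipid kinase gene Pik3c3, had the tightest replicates of the 10 most abundant members, at 24.6 and 24.8 RPKM in control and 18.9 RPKM in each knockout library (-0.37, SE 0.23, adjusted p = 0.389). The SE of this gene comes from the trend over all genes and is far above its own spread, which had an SD of 0.01. Gm28086, on 16 to 34 reads per library, stood at 1.91 and 1.20 against 1.16 RPKM in each knockout library (-0.23). After rescaling, which raises the control libraries relative to both knockout libraries and so could not bring these groups together, their log2 fold changes ran from -0.83 to -0.44.

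Among the 31 members below the filter, mean levels ran from 0.60 to 0.997 RPKM, and the groups did not overlap with knockout higher for 21 and lower for 2, beside 415 (64.0%) and 65 of the 648 genes of the whole table below the filter. Genes this low are listed through their highest library, so nothing is read from these counts. With no filter limma called 4 of these 31 higher (beside 3.54% of all genes), 1700003M07Rik, Gm13067, Gm1968 and Gm44659. Gm13067 stood at 0.0442 and 0.0784 RPKM in control and 0.739 and 3.01 RPKM in knockout, on 3 reads in control and 66 in knockout, and was listed through knockout replicate 2 alone. For 1700003M07Rik there were 0 reads in both control libraries and 4 and 55 reads in knockout. Both rest mostly on knockout replicate 2. In Gm1968 (7, 11, 51 and 73 reads) both knockout libraries contribute, and Gm44659 has 3, 4, 11 and 31 reads.

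Lists of lincRNAs with a known connection held few members, and 3.33% of all genes tested were called higher. Of the 6 symbols linked to p53 in mouse work, 3 were members: Pvt1, which rose, Lncpint and Neat1. Lncpint, a p53-induced RNA that works with the Polycomb complex, stood at 3.06 and 2.56 RPKM in control and 4.08 and 7.26 RPKM in knockout (log2 fold change 0.77, SE 0.34, adjusted p = 0.23), higher in both knockout libraries without passing the test. Neat1 stood at 2.82 and 2.66 against 2.61 and 4.90 RPKM (0.30, adjusted p = 0.556), an excess of replicate 2 alone. For comparison, the p53 target Cdkn1a stood at 2.61, 2.10, 31.5 and 64.3 RPKM (3.78, SE 0.28, adjusted p = 2.46e-39). In the hematopoietic and immune list, 2 of 4 members rose, Pvt1 and AW112010, beside the same 3.33%, and with so few members nothing is read from the share. The others were Gm14005, known as Morrbid, which in mouse myeloid cells restrains its neighbour Bcl2l11 (0.07, adjusted p = 0.873), and Mirt1 (0.12, adjusted p = 0.781). Bcl2l11, the gene of the death protein Bim, stood at 1.48, 1.20, 1.67 and 2.28 RPKM (0.34, adjusted p = 0.48). The imprinted list and the ribosomal DNA list held 0 members.

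Among the 175 members, 8 hold 15 annotated microRNA genes on their own strand, and 13 of those have mature sequences in the RefSeq table used here (GRCm38.p6). The libraries measure the host RNA and not the mature microRNA, whose level was not measured. The mature microRNAs of the 2 best known hosts in blood cells are shown in 5′ to 3′ direction, because Mir17hg holds 6 microRNA genes of which some share a seed; capitals mark the seed, bases 2 to 8.
miR-142a-5p: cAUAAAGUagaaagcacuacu
miR-142a-3p: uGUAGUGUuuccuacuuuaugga
miR-17-5p: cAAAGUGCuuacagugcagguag
miR-20a-5p: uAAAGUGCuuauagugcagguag
miR-18a-5p: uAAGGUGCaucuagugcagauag
miR-19a-3p: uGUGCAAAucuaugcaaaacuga
miR-19b-3p: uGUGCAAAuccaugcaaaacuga
miR-92a-3p: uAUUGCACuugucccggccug
In the Mir17hg transcript, miR-17-5p and miR-20a-5p share 1 seed, and miR-19a-3p and miR-19b-3p share another, while miR-18a-5p and miR-92a-3p each have their own. A seed is the part of a microRNA that pairs with its target messages.

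Mir142hg (chr11:87755577-87757270, plus strand), the host of the blood cell microRNA miR-142, was by far the most abundant of these hosts, at 39.5 and 33.2 RPKM in control and 29.8 and 46.3 RPKM in knockout. Its groups overlapped (log2 fold change 0.04, SE 0.21, adjusted p = 0.91), and after rescaling its fold was -0.33 with both knockout libraries lower. Mir17hg (chr14:115042879-115046727, plus strand), the host of the growth-promoting miR-17 to miR-92 group, stood at 2.30 and 1.41 against 1.88 and 2.65 RPKM (0.20, adjusted p = 0.663). It too overlapped between groups. Ftx hosts Mir374b and Mir421, 4833445I07Rik hosts Mir191 and Mir425 (0.31, adjusted p = 0.517), 2900076A07Rik hosts Mir1839 (0.44, adjusted p = 0.407), and E130102H24Rik hosts Mir101a (0.27, adjusted p = 0.548). Gm21814 (0.13) and Smkr-ps, which was below the filter, each hold a predicted microRNA gene. Of the 7 hosts tested, 0 were called in either direction by limma or by voom, 0 had an unadjusted p under 0.05, and their median log2 fold change was 0.27, against 0.31 over all genes. Of all genes, limma called 4.19% and voom 0.409%, and the shares with an unadjusted p under 0.05 were 13.8% for a higher and 2.45% for a lower level, so a count of 0 among 7 is near the background.

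Where a lincRNA lies close to a coding gene, both can be set side by side. The nearest listed coding gene was tested for 140 tested members, within 10 kb for 59 of them. Across these 59 loci the log2 fold changes of lincRNA and neighbour had a Pearson correlation of 0.30, and across the 81 more distant pairs 0.06. These are descriptions across loci in the same 4 libraries, whose shared scale enters both values of a pair. The close pairs include Gm47697 with Gna15 (2.22 and 0.91), and Gm47697 was listed through its knockout libraries alone. They also include genes with overlapping exons on opposite strands, such as Gm11110 and Tnfsf9, whose reads cannot be assigned with certainty. The correlation without such pairs was not computed, so it is not read as a general property of close pairs. Of the 59 close neighbours 3 rose and 0 fell in the deposited values (5.08%, beside 3.33% of all genes). Of the 81 distant ones 0 were called. After rescaling limma called 0 genes in all, so none of the 3 kept its call. The 3 were Gna15, Gp9 and Nkx2-3.

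Gna15, a G protein subunit of blood cells, lies 1186 bases from Gm47697 on the opposite strand. It stood at 20.6 and 19.5 RPKM in control and 31.2 and 47.5 RPKM in knockout (log2 fold change 0.91, SE 0.22, adjusted p = 0.00206). Its fold was 0.55 after rescaling (limma adjusted p = 0.163) and 0.62 in deposited values without knockout replicate 2. Gp9, a megakaryocyte gene beside Gm43904 on the same strand, stood at 32.3 and 26.2 against 37.7 and 77.2 RPKM (0.87, SE 0.20, adjusted p = 0.00128). For Gp9 the fold was 0.50 after rescaling (limma adjusted p = 0.337) and 0.37 in deposited values without knockout replicate 2. Since strand was not marked and Gp9 lies close by, the pair's reads are separated by annotation only. The 4 megakaryocyte markers, Gp9 among them, held 0.0379% and 0.0374% of reads in control and 0.0492% and 0.0863% in knockout, with summed levels of 335 to 371 RPKM in control and 481 to 764 RPKM in knockout, and none was at 0. Their part in the values of Gm43904 was not tested. Of the other called members, the nearest listed coding genes were Mrpl18 for CT030636.1 (log2 fold change 0.09, or -0.27 after rescaling), Max for Gm35189 (0.38), Atp5mpl for 5033406O09Rik (-0.16), Wfdc2 for Gm14317 (0.26) and Ccdc86 for AW112010 (0.28, or -0.07 after rescaling), and none of these was called. Nkx2-3, beside the uncalled Gm20467 on the opposite strand, had a log2 fold change of 1.09 (adjusted p = 0.0349).

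**Figure D5:**
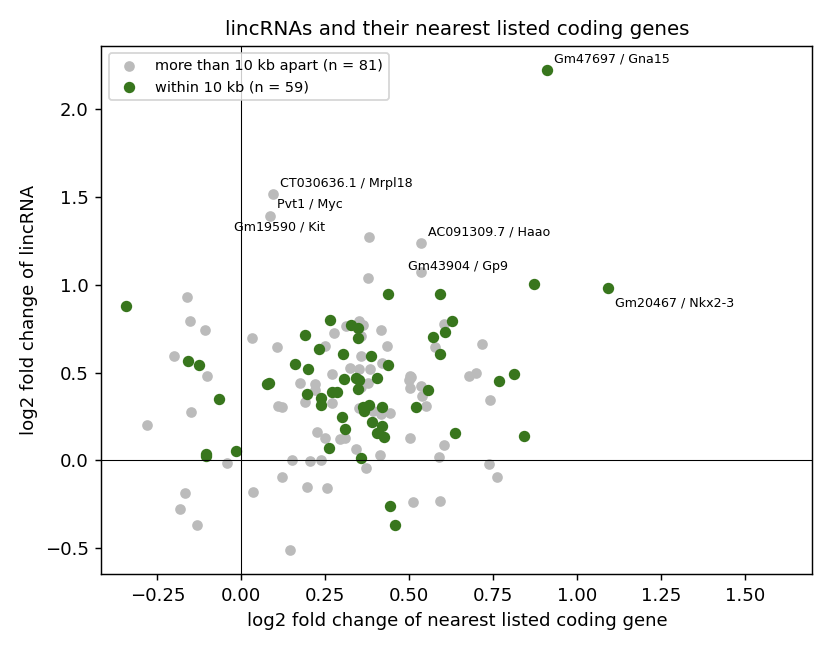
log2 fold change of each lincRNA (vertical) against that of its nearest listed coding gene (horizontal), 1 point per pair, green for 59 pairs within 10 kb and grey for 81 pairs farther apart. Gm47697 with Gna15 (2.22 and 0.91), Gm43904 with Gp9 and Gm20467 with Nkx2-3 lie to the upper right, and the distant pair Pvt1 and Myc (1.39 and 0.09) lies close to the vertical axis.

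Promoters were available in the RefSeq table (GRCm38.p6, 300 bases spanning each start) for 97 members, 109 promoters in all. The p53 decamer was searched by its consensus on both strands and was found in 4 of them (3.67%), against 8.36% of all 32851 promoters. TATAAA was found in 11% against 13.6%, and the E-box CACGTG in 7.34% against 7.15%. No match is a site of binding by itself, and these shares say nothing on any factor.

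The libraries of a group lay farther apart for the listed lincRNAs than for all genes, whose median level was higher (5.80 against 1.76 RPKM). Genes of like level were not compared. Listing through knockout replicate 2 alone, which sets the knockout libraries apart, held for 13.1% of members and 3.94% of all genes. The median distance between replicates on the log2(RPKM + 1) scale was 0.20 in control and 0.45 in knockout, against 0.13 and 0.39 for all genes, and 0.18 and 0.22 against 0.13 and 0.18 after rescaling. The control libraries differed most for 2610035D17Rik (5.40 and 2.57 RPKM), Gm45353 (1.7 and 3.52), B230208H11Rik (3.95 and 1.99), D5Ertd605e (5.40 and 3.03) and Gm13710 (3.36 and 1.76). The knockout libraries differed most for 1700003M07Rik (0.163 and 2.23 RPKM), Gm13067 (0.739 and 3.01), Gm42031 (13.1 and 5.37), 4930568A12Rik (0.694 and 2.75) and 2410080I02Rik (0.61 and 2.55). Among these, Gm42031 was the only one with knockout replicate 1 above replicate 2, and its transcript is matched over 91.3% by another listed gene, Gm43305. Listed through knockout replicate 2 alone were 1700003M07Rik, Gm13067 and 2410080I02Rik. Over all 175 members knockout replicate 2 was above replicate 1 in 154 (88.0%), and control replicate 2 above replicate 1 in 45 (25.7%). These counts are in deposited values, where library scale goes the same way (factors of 0.976 and 1.33 in knockout, 0.9 and 0.857 in control). Listing through knockout replicate 2 alone (23 members) enters them too. The shares over all genes were not computed, so nothing is read from them about lincRNAs.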

How the data were processed

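RNA was sequenced from 4 libraries, 2 control and 2 knockout, of sorted mouse bone marrow cells made with the Smart-Seq V4 kit, per the labels' protocols. The deposited values are RPKM for 12390 Ensembl gene IDs, identified as RPKM from the values, with mm10 as the build (submitters' processing notes). How reads were aligned and counted, and how reads with several matches were treated, was not given in the sources used here. Value times longest GENCODE M21 transcript gave whole reads, within a tolerance of 0.1, for 99.4% of values in each library. A value of 0.001 means no reads, 12384 IDs matched GENCODE M21, and columns left unused number 0.

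Genes averaging 1 RPKM or more were tested on log2(RPKM + 1) with limma 3.58.1 (R 4.3.3), using the trend option, genotype as the sole term and Benjamini-Hochberg adjustment. The test leaves 2 residual degrees of freedom and its prior degrees of freedom were infinite, so each gene's spread was replaced by the trend, and genes with distant replicates get p-values that are too small. Fold changes are knockout minus control on the log2(RPKM + 1) scale and understate the change of low genes. Rescaling divided the libraries, controls first, by trimmed-mean factors of 0.9, 0.857, 0.976 and 1.33. Copies were found with BLAST+ 2.17.0. Alternatives were pseudocounts of 0.1 and 5, no filter, a mean of at least 2 RPKM, rescaling, voom on recovered reads, a robust variance, the replicate number as a block, and leaving out each library.

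The lincRNAs, lists and tests were chosen with earlier results of these data known. Named are the 10 most abundant members, the called ones, the 8 largest uncalled differences in each direction without overlap, 5 per group with the most distant replicates, list members, nearest coding genes of the first 2 kinds, Ddx21 and Cdkn1a. Nkx2-3, Rpl41, Gm32051, Hnrnpf, the run on chromosome 17 with C430042M11Rik and AC132455.2 beside it, and the members called without the filter were named after their values were seen.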

Additional observations from a re-analysis of the deposited data

How the results depend on the processing

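The count of 11 called lincRNAs depended on the scale of the libraries and on single libraries. It was 12 and 8 with pseudocounts of 0.1 and 5 (beside 3.42% and 2.98% of all genes higher), 14 with no filter (3.54%), 9 with a mean of at least 2 RPKM (3.37%) and 11 with a robust variance (3.11%), of which 10 were among the same 11. Rescaled libraries gave 0 lincRNAs and 0 of all genes (492 in the deposited values). Voom on rescaled reads gave 2 and 48. Leaving out 1 library gave between 1 and 95 lincRNAs and between 36 and 6907 of all genes, both highest without knockout replicate 1. Rescaling without a knockout library was added after seeing the data. Without knockout replicate 1 it gave 13 lincRNAs, 6 higher and 7 lower, and 1298 genes, 204 higher (1.74%) and 1094 lower (9.32%), and without knockout replicate 2 it gave 0 and 16. The cause was not tested. The lincRNA median stayed above 0 in each setting run. Each setting drew on the same listed members, 25.1% of which reached the table in knockout libraries only (8.08% of all genes). The settings therefore could not test that selection, which enters the median in each of them. The median over all genes was -0.0028 rescaled, 0.0044 by voom, 0.0053 rescaled without knockout replicate 1 and -0.0067 rescaled without knockout replicate 2.

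With the replicate number as a block, 5 lincRNAs and 239 genes were called. The 5 were Gm47697, CT030636.1, Gm19590, AW112010 and Pvt1, and 5033406O09Rik, AC091309.4, AC091309.7, Gm14317, Gm35189 and Gm43904 lost their calls. The numbers do not pair the libraries: deviations of same-numbered libraries correlated at 0.067, and the labels tie the numbers to nothing.

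None of the differences that changed sign had been called. Rescaling turned the log2 fold changes of 2900097C17Rik (-0.33), B230208H11Rik (-0.27), Gm14005 (-0.15), Gm21814 (-0.069), Malat1 (-0.37), Mir142hg (-0.33), Mir17hg (-0.052), Mirt1 (-0.12), Tmem250-ps (-0.24), Ccdc86 (-0.071), Mrpl18 (-0.27) and Myc (-0.29). Voom turned 2900097C17Rik (-0.35), B230208H11Rik (-0.35), Gm13710 (-0.031), Gm14005 (-0.24), Gm21814 (-0.12), Malat1 (-0.37), Mir142hg (-0.32), Mir17hg (-0.0503), Mirt1 (-0.16), Neat1 (-0.00051), Tmem250-ps (-0.25), Ccdc86 (-0.074), Mrpl18 (-0.27) and Myc (-0.26). A pseudocount of 5 turned B230208H11Rik (-0.0105). Leaving out 1 library gave ranges of -0.26 to 0.32 for 2900097C17Rik, -0.055 to 1.09 for 4930568A12Rik, -0.36 to 0.36 for B230208H11Rik, -0.058 to 0.60 for Gm13710, -0.15 to 0.28 for Gm14005, -0.073 to 0.34 for Gm21814 and -0.018 to 0.96 for Gm28875. The ranges were -0.72 to 0.42 for Gm42031, -0.16 to 0.17 for Malat1, -0.27 to 0.34 for Mir142hg, -0.025 to 0.43 for Mir17hg, -0.20 to 0.44 for Mirt1, -0.054 to 0.23 for Myc, -0.049 to 0.66 for Neat1, -0.15 to 0.41 for Tmem250-ps and -0.25 to 0.78 for Wfdc2. At a median of 106 to 143 reads, small differences of single lincRNAs were not detectable.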
